A study of Mus musculus with 2 samples.

Results

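The binding sites of CTCF in and around 10 genes of TGF-beta signalling were read from chromatin immunoprecipitation and sequencing (ChIP-seq) of embryonic mouse lung. The genes were the ligands Tgfb1, Tgfb2 and Tgfb3, the latent TGF-beta binding proteins Ltbp1, Ltbp2, Ltbp3 and Ltbp4, the receptors Tgfbr1 and Tgfbr2, and the signal transducer Smad3. They were taken as a family by name, and their sites were chosen by position: every peak summit of the optimal list in a gene, as annotated by GENCODE M21, or within 50 kb of it. These are 10 of 21884 protein-coding genes, and the rule gave 118 of the 54943 sites on chromosomes 1 to 19 and X. The study held 1 group of 2 samples, replicates 1 and 2, both from lungs of B6NCrl embryos at 14.5 days, and no second condition. The tissue was a pulverised pool of whole lungs, male and female, collected over multiple dissections, so cell types are mixed, and both samples carry the same biosample record. The spread between the replicates may therefore be technical. The list called optimal had been thresholded by the authors for reproducibility (irreproducible discovery rate, IDR), and each replicate list held 300000 peaks. Peak lists hold no read counts, so the sequencing depth is unknown, and positions are on mm10.

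TGF-beta ligands are secreted in a latent complex, in which a latent TGF-beta binding protein ties the ligand to the extracellular matrix. Released ligand binds the type II receptor, encoded by Tgfbr2, which recruits and activates the type I receptor, encoded by Tgfbr1, and the activated complex phosphorylates SMAD2 and SMAD3. In the developing lung the pathway is known for its part in branching, in the mesenchyme and in the laying down of matrix. CTCF is a zinc finger protein whose long motif is not symmetric, so each site has a direction. Loops of chromatin tend to be anchored where a pair of motifs point at each other.

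Each of the 10 genes had at least 1 CTCF site in its window, against 86.5% of 21884 protein-coding genes. Windows differ in length with the gene, so the counts are set per 100 kb further on. Ltbp4 had 21 sites, Ltbp1 had 20, Ltbp2 had 15, Tgfb1 had 14, Smad3 had 13, Tgfb2 had 9, Tgfbr2 and Ltbp3 had 8 each, and Tgfb3 and Tgfbr1 had 5 each. The strongest site of every gene but Smad3 was among the strongest 10000 sites of the genome, 9 of 10 against 57.0% of protein-coding genes with such a site in their window. The windows of these genes are longer and hold more sites, with a median of 11 against 5, and the part of that in the share was not tested. Signal here is the peak caller's own value for a peak, as the authors deposited it, with no unit that carries over between lists.

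The sequences below are the strongest site of each gene whose match passed the motif threshold, and the Tgfb1 promoter site. They show the letters and the genomic strand of the motif at these sites only. Each is written along the motif from 5′ to 3′, with the 20 bases of the motif in capitals and 20 bases of the genome (RefSeq copy of GRCm38, the assembly of mm10) on each side in lower case.
Tgfb1 promoter site, chr7:25686771-25686830, plus strand: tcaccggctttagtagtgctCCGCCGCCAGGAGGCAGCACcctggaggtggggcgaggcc
Tgfb1 downstream site, chr7:25720137-25720196, plus strand: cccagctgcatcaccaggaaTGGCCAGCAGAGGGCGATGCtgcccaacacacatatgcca
Tgfb3 promoter site, chr12:86079559-86079618, minus strand: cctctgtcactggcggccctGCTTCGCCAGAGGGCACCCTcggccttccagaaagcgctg
Ltbp1 promoter site, chr17:75004996-75005055, minus strand: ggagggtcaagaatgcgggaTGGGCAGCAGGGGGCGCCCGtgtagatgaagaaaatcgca
Ltbp2 intron site, chr12:84784645-84784704, plus strand: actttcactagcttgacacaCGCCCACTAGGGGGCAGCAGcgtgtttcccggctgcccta
Ltbp3 upstream site, chr19:5727982-5728041, minus strand: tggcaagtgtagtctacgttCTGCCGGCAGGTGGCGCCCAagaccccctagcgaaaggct
Ltbp4 intron site, chr7:27336052-27336111, plus strand: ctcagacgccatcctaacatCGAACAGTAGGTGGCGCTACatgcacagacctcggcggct
Tgfbr1 downstream site, chr4:47438158-47438217, plus strand: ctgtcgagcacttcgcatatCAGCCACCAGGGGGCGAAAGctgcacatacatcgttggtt
Tgfbr2 downstream site, chr9:116041935-116041994, minus strand: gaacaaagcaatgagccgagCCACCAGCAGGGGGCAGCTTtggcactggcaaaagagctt
Smad3 exon site, chr9:63650332-63650391, plus strand: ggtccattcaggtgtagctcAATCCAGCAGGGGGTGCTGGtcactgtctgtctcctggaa

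Those capitals share the core of the CTCF motif. The matrix used to find them had the consensus TGGCCACCAGGGGGCACTAG and was learned from sites outside the windows of these genes. Positions are counted from 1 at the 5′ end of the motif. The consensus base stood at positions 5, 10 and 13 in all 67 matches of the windows, against 99.9%, 99.8% and 99.5% over all sites. It stood at positions 9 and 14 in 65 of the 67 each and at position 15 in 62. Over all sites these shares were 96.2%, 93.0% and 82.5%. Matches were picked by the matrix, so a shared core follows largely from the threshold. Other positions varied, outer and inner alike. The consensus base stood at position 1 in 22.4% of these matches, against 36.5% over all sites, and at position 7 in 31.3%, against 44.0%. A match held between 10 and 15 consensus bases, with a median of 13.0 in the windows and 13.0 over all sites.

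The strongest site of the 10 windows (signal 448.9) and the Ltbp2 promoter site (363.3) held no match that passed the threshold of 10.3 bits. They are shown as the 101 bases around the summit on the plus strand, with the best-scoring 20 bases in capitals.
Tgfb2 upstream site, chr1:186722094-186722194, best window on the minus strand: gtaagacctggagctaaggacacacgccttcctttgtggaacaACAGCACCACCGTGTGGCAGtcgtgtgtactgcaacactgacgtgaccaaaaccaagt
Ltbp2 promoter site, chr12:84876898-84876998, best window on the plus strand: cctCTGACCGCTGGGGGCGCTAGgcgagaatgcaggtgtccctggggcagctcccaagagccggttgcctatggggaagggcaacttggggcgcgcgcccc
The Tgfb2 window scored 6.14 bits and held 11 consensus bases. The Ltbp2 window scored 0.554 bits although it held 13 consensus bases, as many as the median match. A site without a match is thus one whose letters fell under this threshold, which is no statement about CTCF at that place.

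**Figure D1:**
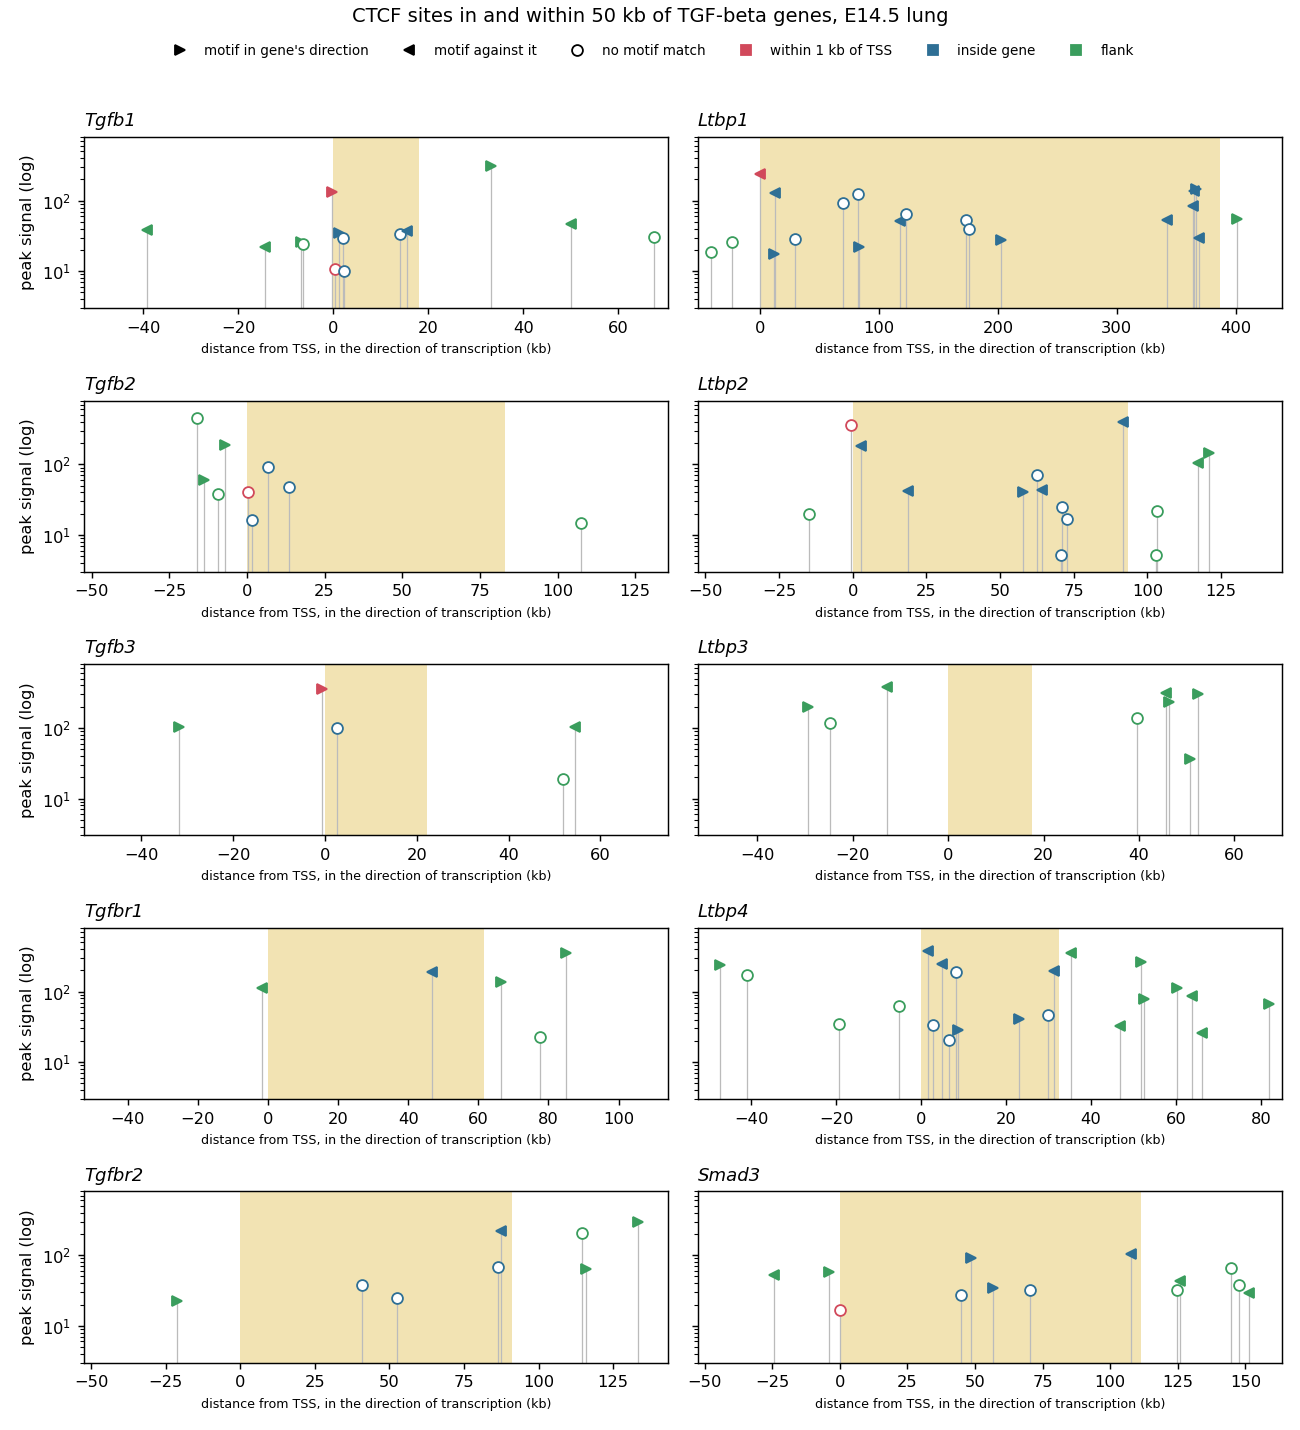
Each panel is the window of 1 gene, with the distance from its TSS in kb along the direction of transcription on the x axis, the gene shaded, and the signal of each site in the optimal list on a log y axis. Filled triangles point the way the motif points relative to the gene, and open circles are sites with no match; Ltbp3 has 0 sites in its shaded body, while Ltbp1 has 16.

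CTCF sites lay at the promoters of all 3 ligands, of Ltbp1 and Ltbp2 and of Smad3, and those of Tgfb3, Ltbp1 and Ltbp2 were among the strongest 10000 sites. A summit lay within 1 kb of the transcription start site (TSS, the 5′ end of the gene record) in 6 of the 10 genes, against 26.6% of protein-coding genes. Among the strongest 10000 sites these were 3 of 10 genes, Tgfb3, Ltbp1 and Ltbp2, against 4.27%. The genes were chosen with earlier results of these data known, so these shares are a description and carry no test.

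Tgfb3 encodes the ligand best known for its part in palate and lung development. Its promoter peak, chr12:86079464-86079713, had a signal of 352.2 in the optimal list, 201.4 in replicate 1 and 151.9 in replicate 2. It ranked 1248 of the optimal list, 925 in replicate 1 and 1766 in replicate 2, so both replicates put it near the top. The summit lay 542 bp upstream of the Tgfb3 TSS and within 1 kb of the start of Gm48008, a non-coding transcript. Its motif, shown above, lay on the same strand as the gene and passed the threshold narrowly, at 10.8 bits.

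The Ltbp2 promoter peak, chr12:84876796-84877113, had a higher signal than that of Tgfb3 in the optimal list and in replicate 2, and a lower one in replicate 1. LTBP2 is the member of its family that does not bind latent TGF-beta and is known from elastic and ciliary fibres. Its signal was 363.3 in the optimal list, 198.0 in replicate 1 and 169.2 in replicate 2, at ranks 993, 1051 and 861. The summit lay 416 bp upstream of the TSS, inside the neighbouring transcript D030025P21Rik.

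Ltbp1 encodes the binding protein that carries latent TGF-beta to fibrillin and fibronectin. Its promoter peak, chr17:75004893-75005146, had 236.5 in the optimal list, 139.6 in replicate 1 and 101.5 in replicate 2. The summit lay 544 bp upstream of the TSS, and the motif pointed away from the gene. With Tgfb3 and Ltbp2, this promoter peak stood above the weaker promoter sites of the family in both replicates.

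The remaining promoter sites were weaker. Tgfb1, the ligand with the broadest roles, had a site 204 bp upstream of its TSS with a signal of 131.3, at 70.4 in replicate 1 and 60.9 in replicate 2. A second Tgfb1 summit, 419 bp into the gene, had 10.8, with 6.91 in replicate 2 and no peak in replicate 1. Tgfb2 had a site of 41.0, at 24.6 in replicate 1 and 16.2 in replicate 2, which lay 341 bp into the gene and 47 bp from the start of the antisense transcript Gm29491. Smad3 had a site 1 bp from its TSS with a signal of 16.5, and neither replicate list had a peak there. That site ranked 52890 in the optimal list and was absent from the conservative one. Without it the count was 5 of 10 genes.

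Of the 7 promoter sites, 3 held a motif match, those of Tgfb1, Tgfb3 and Ltbp1, against 36.1% of all sites within 1 kb of any TSS. The Tgfb1 and Tgfb3 motifs pointed along the gene and that of Ltbp1 against it. Outside the 1 kb limit, the sites nearest to a TSS were at Tgfb1 (1271 bp, signal 34.9), Tgfb2 (1471 bp, 16.2), Tgfbr1 (1594 bp upstream, 111.9) and Ltbp4 (1610 bp into the gene, 371.9). A limit of 2 kb therefore counted 8 of 10 genes. The share of protein-coding genes at that limit is not given here. Tgfbr2 and Ltbp3 had no site within 5 kb of the TSS.

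Other annotated starts of the same genes gave 8 further sites within 1 kb. They lay at Tgfb1 (3 sites, signals 10.1 to 34.9), Tgfb2 (16.2), Ltbp1 (53.4) and Ltbp4 (3 sites). The Ltbp1 site lay 173030 bp into the gene, 212 bp from a transcript start there. It had 24.2 in replicate 1 and 28.0 in replicate 2. The 3 Ltbp4 sites had signals of 196.9, 47.2 and 247.7 and lay 609 bp, 785 bp and 795 bp from a transcript start. With all starts counted, 7 of the 10 genes had a promoter site. The share of protein-coding genes by that rule is not given here.

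**Figure D2:**
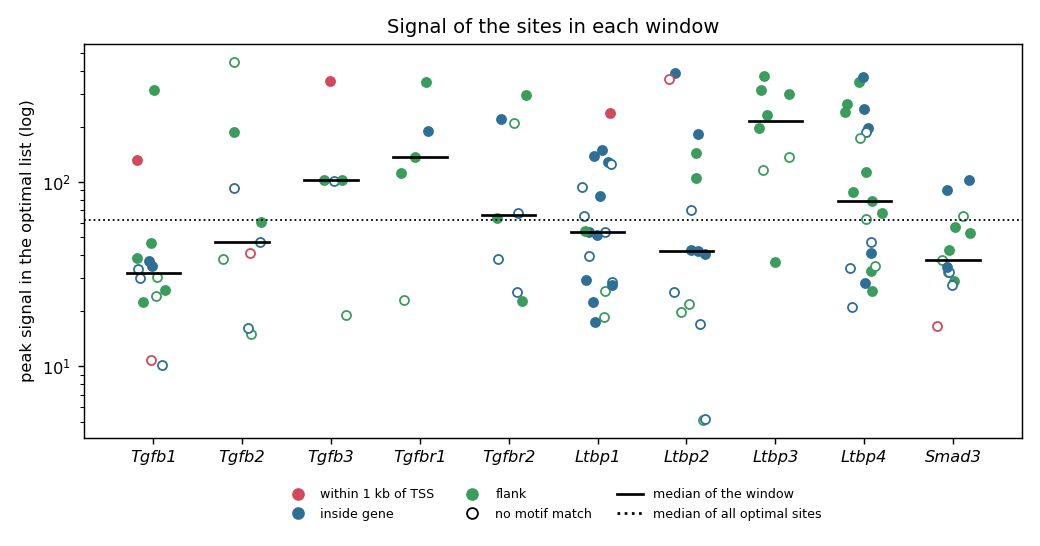
The signal of every site is plotted on a log y axis for each of the 10 genes, with open circles for sites without a motif match. Black bars are window medians, from 32.1 at Tgfb1 to 214.2 at Ltbp3, and the dotted line is the median of all optimal sites, 62.3.

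Inside the genes lay 55 of the 118 sites, in 9 of the 10 genes, against 50.6% of protein-coding genes with a site inside. The members are long genes, with a median length of 72.5 kb against 17.4 kb for protein-coding genes, and the part of length in this share was not tested. By position, 43 of the 55 lay in introns, 6 in coding exons, 4 in untranslated exons and 2 in non-coding exons. Their median signal was 42.0, against 61.9 for the 28 upstream sites and 67.4 for the 35 downstream sites. Neither the split by position nor these medians are given over all protein-coding genes, so whether they are usual is not known.

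Among the ligands, the strongest sites of Tgfb1 and Tgfb2 lay outside the gene. At Tgfb1 it lay 15089 bp past the 3′ end, at chr7:25720019-25720290, with a signal of 315.0, at 164.9 in replicate 1 and 151.4 in replicate 2. Its 6 intragenic sites ran from 10.1 to 37.4, all under the median of 62.3 over all optimal sites. At Tgfb2 the strongest site lay 16155 bp upstream, in the neighbouring gene Rrp15, at chr1:186722005-186722290. Its signal of 448.9 ranked 151 in the optimal list, with 239.0 and rank 197 in replicate 1 and 209.5 and rank 131 in replicate 2. The rest of the Tgfb2 window was weaker, with 187.9 at 7011 bp upstream as the next value and 92.5 as the highest value inside the gene.

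Tgfb3 had 1 intragenic site, in an intron 2520 bp from the TSS, with a signal of 100.8, at 63.3 in replicate 1 and 37.4 in replicate 2. Both ends of its window held a site of similar size. The downstream one, in Ttll5, had 102.9, and the upstream one, in Ift43, also had 102.9.

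The latent binders differed widely from one another. Ltbp1, the longest gene at 387 kb, held 16 intronic sites spread from 11127 bp to 368919 bp from its TSS, with signals from 17.5 to 148.5. Of these, 4 stood close together near the 3′ end, from 363975 bp to 368919 bp, with signals of 84.1, 139.1, 148.5 and 29.3. The strongest of them, 148.5, had 76.9 in replicate 1 and 74.5 in replicate 2. All 20 Ltbp1 sites had a peak in both replicate lists.

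Ltbp2 held 9 intragenic sites and the second-strongest site of the 10 windows. That site lay in an intron 91856 bp from the TSS, close to the 3′ end of the gene, at chr12:84784545-84784808. Its signal was 391.7, rank 526, with 203.2 in replicate 1 and 186.9 in replicate 2. Together with the promoter site of 363.3, the highest signals of Ltbp2 stood at the 2 ends of the gene. A further site, of 183.0, lay 2888 bp into it, and the other 7 intragenic sites ran from 5.16 to 70.6.

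Ltbp3, a gene of 17.6 kb whose product is known from bone and tooth, had no site inside and 8 in its flanks. Their signals ran from 36.7 to 374.4, with a median of 214.2, and 7 of the 8 exceeded 100. The strongest lay 12925 bp upstream, at chr19:5727826-5728139 near the antisense transcript Gm16538, with 209.4 in replicate 1 and 166.0 in replicate 2. Downstream, 4 sites lay between 28049 bp and 34693 bp past the gene, with signals of 316.2, 232.0, 36.7 and 299.2. The sites nearest to the gene lay 12925 bp upstream and 21891 bp downstream of it.

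Ltbp4, whose product takes part in elastic fibre assembly in the lung, had the densest window. It held 15.8 sites per 100 kb, at percentile 99.7 of protein-coding genes, and Tgfb1 followed with 11.9, at percentile 97.3. The median was 5.53 over the 10 genes and 3.62 over protein-coding genes, and 9 of the 10 stood above the gene median. Tgfbr1, with 3.09, stood below it. Ltbp1, whose 20 sites were the second-highest count, had 4.11 per 100 kb, at percentile 56.2.

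Ltbp4 held 9 sites inside its 32.6 kb, of which 4 had a signal above 100. The strongest, 371.9, lay 1610 bp from the TSS at chr7:27335954-27336216, with 214.4 in replicate 1 and 157.1 in replicate 2. The next, 349.8, lay 2797 bp past the 3′ end, with 199.5 in replicate 1 and 152.0 in replicate 2. Both motifs pointed against the direction of the gene. Some of its flanking sites lay in the neighbouring genes Numbl, Coq8b, Shkbp1 and Sptbn4.

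**Figure D3:**
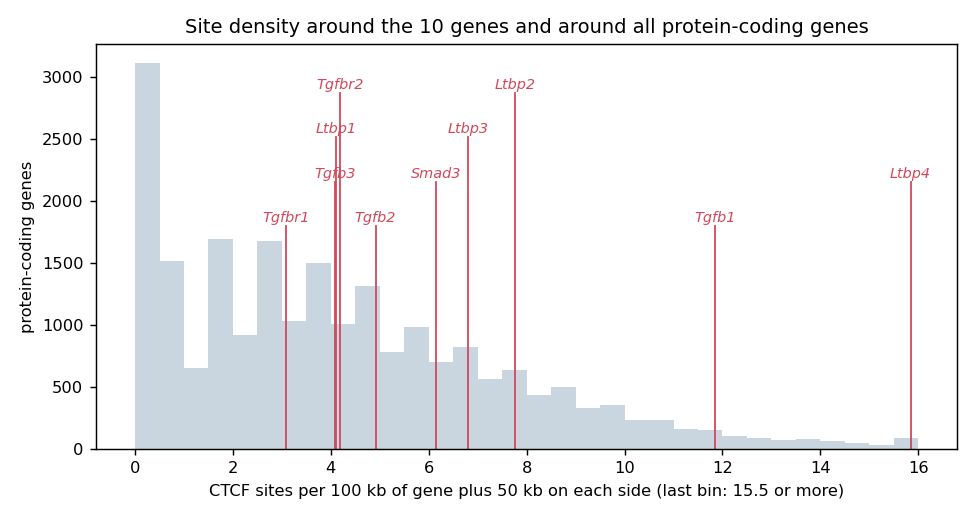
Bars count protein-coding genes by CTCF sites per 100 kb of the gene plus 50 kb on each side (x axis), and red lines mark the 10 genes. Ltbp4 at 15.8 and Tgfb1 at 11.9 stand in the right tail, and the other 8 genes lie between 3.09 and 7.76.

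Tgfbr1 had 5 sites and Tgfbr2 had 8, against a median of 5.00 per window over protein-coding genes, and the strongest of each lay past its 3′ end. At Tgfbr1, 1 site lay inside the gene, in an intron 46827 bp from the TSS with a signal of 188.5, at 100.5 in replicate 1 and 91.1 in replicate 2. Its strongest site, 349.4, lay 23275 bp past the 3′ end at chr4:47438068-47438329. Replicate 1 had 196.5 there and replicate 2 had 150.4.

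Tgfbr2 had 4 intragenic sites. A pair in the untranslated last part of the gene, 87266 bp and 86237 bp from the TSS, had signals of 219.8 and 68.1. The former had 123.1 in replicate 1 and 98.7 in replicate 2. The strongest of the window, 296.2, lay 42333 bp past the 3′ end in the neighbouring gene Gadl1, at chr9:116041840-116042088. It had 174.7 in replicate 1 and 123.4 in replicate 2. The single upstream site, 21385 bp from the TSS, had 22.6.

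Smad3, the receptor-activated transducer, had 13 sites, none among the strongest 10000. Its strongest, 103.0 at rank 19636, lay in a coding exon 107627 bp from the TSS, at chr9:63650357-63650428. It had 52.7 in replicate 1 and 49.3 in replicate 2. The next intragenic value was 90.3, in an intron 48518 bp from the TSS, and the sites outside the gene ran up to 65.2. The 5 downstream sites lay in the neighbouring gene Aagab.

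A motif match within 50 bp of the summit was present at 67 of the 118 sites, or 56.8%, against 60.9% of all optimal sites. The threshold had been set so that 1% of windows shifted by 1 kb passed, so that share is no measured background. Sites with a match had a median signal of 90.3 and those without had 34.0, against 95.1 and 37.4 over all sites. Inside the genes 27 of 55 sites held a match, and outside 40 of 63, with no such shares over all genes given here. The match centre lay within 20 bp of the summit at 63 of the 67 sites. Of the 21 window sites among the strongest 10000 of the genome, 18 held a match, near the 86.1% over all sites of matched strength. The 3 that lacked one were at Tgfb2, Tgfbr2 and Ltbp2.

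Both strands were used alike, with 33 motifs on the plus and 34 on the minus strand. Relative to its gene, the motif pointed along transcription at 34 sites and against it at 33. Inside the genes 10 pointed along and 17 against, upstream 10 along and 6 against, and downstream 14 along and 10 against. The same splits over all protein-coding genes are not given here, so whether these are usual is not known. Per gene, the intragenic and flanking matches together were split 7 along to 7 against at Ltbp4, 5 to 7 at Ltbp1 and 4 to 4 at Tgfb1. At Tgfb2 both matches pointed along the gene, and at Ltbp2 it was 2 along to 5 against.

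The nearest motifs outside each end of a gene faced each other at 4 of the 10 genes, against 28.0% of protein-coding genes. Motifs inside the gene were left out of this count, even where they lay closer to its end. These convergent pairs enclosed Tgfb3 (54.95 kb), Ltbp2 (274 kb), Ltbp4 (82.6 kb) and Smad3 (130 kb), where the distance is between the summits. At Tgfb3 the pair was the promoter motif of 352.2 and the downstream motif of 102.9. At Ltbp4 it was the motif 2797 bp past the 3′ end and one 47292 bp upstream, with signals of 349.8 and 240.7. At Ltbp2 the upstream partner lay 156380 bp from the gene, beyond the window. Tgfbr1 and Ltbp1 were enclosed by divergent motifs, 2 of 10 against 25.2% of protein-coding genes, and Tgfb1, Tgfb2, Tgfbr2 and Ltbp3 by motifs that pointed the same way. Over all 57 adjacent pairs of matches in the windows, 14 were convergent, 16 divergent and 27 in tandem, where 24.1% of all adjacent pairs in the genome were convergent and 24.1% divergent. Among the 21 pairs at least 20 kb apart, 6 were convergent, 6 divergent and 9 in tandem, against 27.6% convergent and 22.1% divergent over all pairs that far apart. Peak lists hold no contact data, so no loop is shown here.

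Both replicates listed nearly all of these sites. The optimal list was derived from both replicates and had been thresholded for reproducibility, so this may follow largely from the selection. A peak of each replicate held the summit at 112 of the 118, or 94.9%, against 97.8% of all optimal sites, and 98 were also in the conservative list, or 83.1% against 87.5%. The 6 sites not found in both had optimal signals of 20.9 or less: the Tgfb1 site of 10.8, the Tgfb2 site of 14.9, the Ltbp2 sites of 5.11 and 5.16, the Ltbp4 site of 20.9 and the Smad3 site at the TSS. Replicate 1 was higher at 89 of the 112 sites, with a median ratio of 1.23, the same as over all sites. A site's percentile among matched sites differed between replicates by a median of 5.28 points, against 4.69 over all sites.

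At 9 of the 112 sites the percentiles differed by more than 21.6 points, the difference that 95% of all matched sites stayed within. The largest, 38.4 points, was at a Tgfb1 intron site 15546 bp from the TSS, with 10.2 in replicate 1 and 25.1 in replicate 2. An Ltbp2 intron site 18618 bp from the TSS went the other way, with 30.8 and 9.34. These 9 sites had optimal signals from 25.1 to 47.2, all under the median over all optimal sites. The Tgfb1 promoter site of 10.8 and the Smad3 site at the TSS lacked a peak in at least 1 replicate list and could not be counted. None of the other sites within 1 kb of a member's TSS was among the 9. An Ltbp4 site of 47.2 near another Ltbp4 transcript start was, and so was the site of 35.1 near the starts of Gm20479 and Shkbp1.

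**Figure D4:**
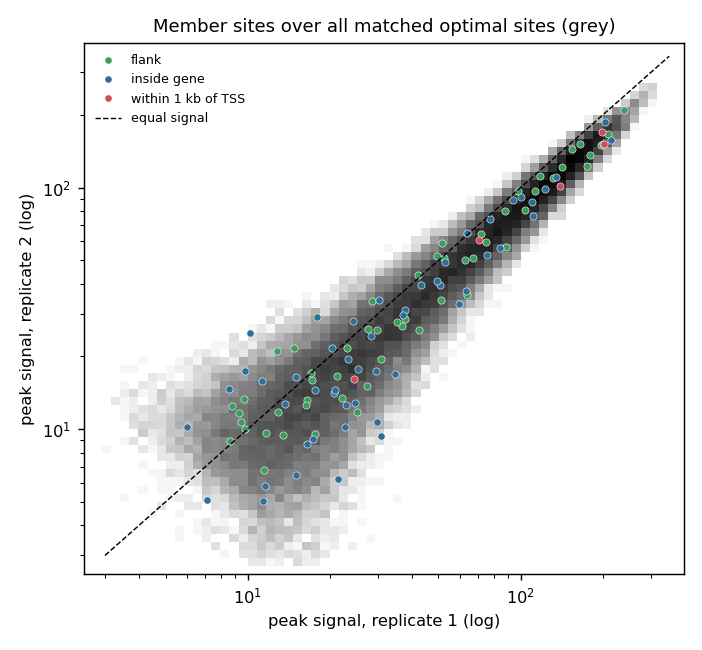
Signal in replicate 1 (x axis) is plotted against replicate 2 (y axis), both log, for the 112 member sites found in both lists, over all matched optimal sites in grey (darker for more sites). All member sites over 100 in replicate 1 lie under the dashed line of equal signal, and sites of lower signal lie on both sides of it.

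Some sites of the windows belonged by position to other genes. Of the 63 sites outside the 10 genes, 34 lay inside another annotated gene. The share of all optimal sites inside a gene is not given here, so whether 34 is many or few is not known. Over all 118, 17 lay within 1 kb of some TSS, or 14.4% against 14.7% of all optimal sites, and 10 of these were starts of other genes alone. Protein-coding ones were B9d2 and Hnrnpul1 near Tgfb1, Isca2 and Npc2 near Ltbp2, and Gm20479 and Shkbp1 near Ltbp4, with signals from 5.11 to 35.1. Sites in soft-masked repeats made up 20.3% of the windows' sites and 19.6% of all.

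Beyond the 10 genes, 37 other genes of the pathway had promoter sites in 13 cases, or 35.1%, against the 26.6% of protein-coding genes. The strongest was at Bambi, a decoy receptor that dampens the signal, with 251.3, at 139.7 in replicate 1 and 111.2 in replicate 2. It was followed by Nedd4l, a ubiquitin ligase that acts on SMADs (219.2), Bmp1, a protease that processes procollagen and latent complexes (199.0), Thbs1, an activator of latent TGF-beta (197.8), and Cdkn2b, a cell cycle inhibitor induced by the pathway (185.6). The other 8 were at Tgfbr3, Zfyve9, Smad6, Pmepa1, Itgav, Eng, Smad7 and Ski, with signals from 21.7 to 90.5. Smad2 and Smad4, the partners of SMAD3, had no promoter site, nor did the inhibitory ligases Smurf1 and Smurf2. Ski had 2 promoter sites. Read at the strongest promoter site of each of the 13 genes, a motif match was present at 3, Thbs1, Cdkn2b and Eng. Over all sites within 1 kb of any TSS the share was 36.1%. None of the 37 exceeded the promoter signals of Tgfb3 or Ltbp2, but Bambi, with 251.3, exceeded that of Ltbp1, with 236.5.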

How the data were processed

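CTCF ChIP-seq peaks of 2 samples (1 group) were used. Per the deposited README, each replicate list came from its own alignment to mm10, the pooled list from both alignments, each with the same second input whose kind it does not state, and the optimal and conservative IDR lists from these 3 and 1 further file. Which aligner, peak caller and IDR threshold were used is not given in the sources used here. Column 7, the signal, was deposited by the authors unscaled between lists, so each rank or percentile refers to 1 list only. The summit was column 2 plus column 10, written 1-based, in the 5 deposited lists. No peak and no gene lay past the end of its GRCm38 patch 6 chromosome, and sequence was taken from that assembly.

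Genes came from GENCODE M21. Shares of protein-coding genes used those with a unique symbol. The motif matrix was grown from a 9-base seed to 20 bases in 15 rounds on the strongest 3000 sites of odd-numbered autosomes outside the 10 windows, leaving out the lowest-scoring 30% each round. Both strands were scanned, and the score threshold was set so that 1% of windows moved by 1 kb held a match. A replicate value is that of the strongest replicate peak holding the summit. The scan was tested on simulated data.

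The members and lists were chosen with earlier results of these data known, so no test was made and no p-value is given. All members are described. For each, the strongest promoter and intragenic sites were named, and of the 37 pathway genes the 5 with the strongest promoter site, with the others named after their values were seen. The scripts ran in Python 3.11.15 with pandas 2.3.3, numpy 2.4.6, matplotlib 3.10.9 and numba 0.67.0.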

Additional observations from a re-analysis of the deposited data

How the results depend on the processing

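The 118 window sites, 6 genes with a promoter site, 55 intragenic sites and 67 motif matches gave 39 recounts under other settings, of which 32 stayed within 1.5 times the reported count. Among the strongest 10000 sites the counts were 21, 3, 5 and 18 (of 21). Without a flank 55 sites and 27 matches were left, by construction. A motif threshold passing 0.1% of shifted windows left 16 matches, and 17.6% of all optimal sites, while one passing 5%, added after the data were seen, gave 82 and 81.6%. Leaving out each replicate gave 113 to 114 window sites, 5 to 7 genes with a promoter site, 49 to 52 intragenic sites and 63 to 66 matches. The strongest site of each of the 10 genes was within 50 bp of the same place in all 20 such checks. A matrix from even-numbered autosomes gave 67 matches, and at the 66 sites that both matrices matched the strand was the same at 66. Overlapping peaks gave 3 sites that merge with a neighbour. No paired analysis was possible because the series has 1 group. The 50 kb limit cut between near neighbours at Tgfb1, where sites lay 49475 bp (signal 30.5) and 50058 bp (90.7) from the gene. Peak lists carry no depth, so nothing is said of places without a peak.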

Other observations

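A pair of window sites on different chromosomes held the same 20 bases as their motif. One was an intron site of Ltbp1, at chr17:75016681-75016740, with a signal of 17.5. The other lay downstream of Ltbp3, at chr19:5787214-5787273, with 232.0. Both lay in soft-masked repeats, and the motif, in capitals, matched 14 consensus bases in each.
Ltbp1 intron site: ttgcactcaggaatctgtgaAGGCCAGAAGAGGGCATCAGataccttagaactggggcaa
Ltbp3 downstream site: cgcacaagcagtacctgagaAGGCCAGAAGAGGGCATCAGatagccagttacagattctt
The Ltbp1 site had 11.6 in replicate 1 and 5.80 in replicate 2, and the Ltbp3 site had 118.1 and 111.8, so that equal motif letters went with signals far apart in both replicates. The other 65 matches of the windows each had letters of their own, though several came close to the shared ones. Among these were sites downstream of Tgfb1, upstream of Tgfb2 and in another Ltbp1 intron position.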
